A study of Mus musculus with 8 samples.

Results

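The genes described here are 8 genes of neurotrophin signalling, nerve guidance and pain peptides: Bdnf, Ntf3, Ngfr, Ntrk2, Ntrk3, Sema3a, Tac1 and Calca. They were named as a list, and a gene was measured by the probe sets whose platform annotation names it alone. This gave 26 probe sets for 6 of the 8 genes, among 18193 genes in all. Ntf3 and Calca have no probe set named in the annotation used here and were not analysed here. RNA came from lumbar intervertebral discs of female BALB/c mice, 6 discs pooled per sample. The immunized group, 5 samples, came from mice given cartilage proteoglycan (100 µg of protein) with 2 mg of dimethyldioctadecylammonium bromide, an adjuvant, on days 0, 21 and 42. The control group, 3 samples, came from naive mice of matched age, which received neither. The immunized mice are a model of spondyloarthropathy, an inflammatory disease of the spine. The ages themselves are not given in the sources used here. The labels call the samples biological replicates, but 2 sample numbers are joined in the description of naive replicate 3 and again in that of immunized replicate 1, and how many mice gave each sample is not settled.

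Neurotrophins are secreted growth factors that keep sensory neurons alive and tune their response to painful stimuli. Each binds a receptor tyrosine kinase of the Trk family, BDNF binding TrkB and neurotrophin-3 binding TrkC, and all bind the shared receptor p75. Semaphorin 3A repels growing axons, and substance P and calcitonin gene-related peptide are released by pain-sensing nerve endings. The healthy disc holds nerve fibres in its outer layers only, and growth of such fibres into inflamed or degenerating discs is known from other work.

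Each value is a log2 expression level from which the probe set's median across the 8 arrays was taken away, so 0 is the middle of the samples and a difference of 1 is a doubling. The centring removes the level of a gene, and levels of different genes cannot be compared. The spacing of the printed numbers still gives a coarse level class for a probe set on its lowest array, namely below 4, from 4 to 8, or 8 or more (log2). All 13 chondrocyte markers and 6 of 10 nucleus pulposus and notochord markers had a probe set in the class of 8 or more, as did all 10 skeletal muscle markers. Of 16 sensory neuron markers 1 reached that class, 14 lay in the class from 4 to 8 and 1 below 4. Of 10 Schwann cell markers 4 reached the upper class.

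None of the 6 measured genes differed between immunized and naive discs at an adjusted p under 0.05 in limma, against 9.14% of all genes (4.46% higher and 4.68% lower). An unadjusted p under 0.05 was found for 2 (Ngfr and Ntrk3, both lower in immunized discs), against 31.1% of all genes (12.9% higher and 18.2% lower). In 1 of the 6, Ntrk3, the groups did not overlap, against 23.4% of all genes (9.39% higher and 14.0% lower). These shares lie near or below those over all genes, so the counts single out nothing about the 6 genes. Tac1 and Bdnf had positive differences and the other 4 genes negative ones. Tested one by one, 0 of the 26 probe sets passed in limma (6.19% of all probe sets did), the smallest adjusted p being 0.102, while 8 had an unadjusted p under 0.05, 2 higher and 6 lower (27.6% of all probe sets). Since the number of mice behind each sample is open, the p-values measure the spread between these samples.

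**Figure D1:**
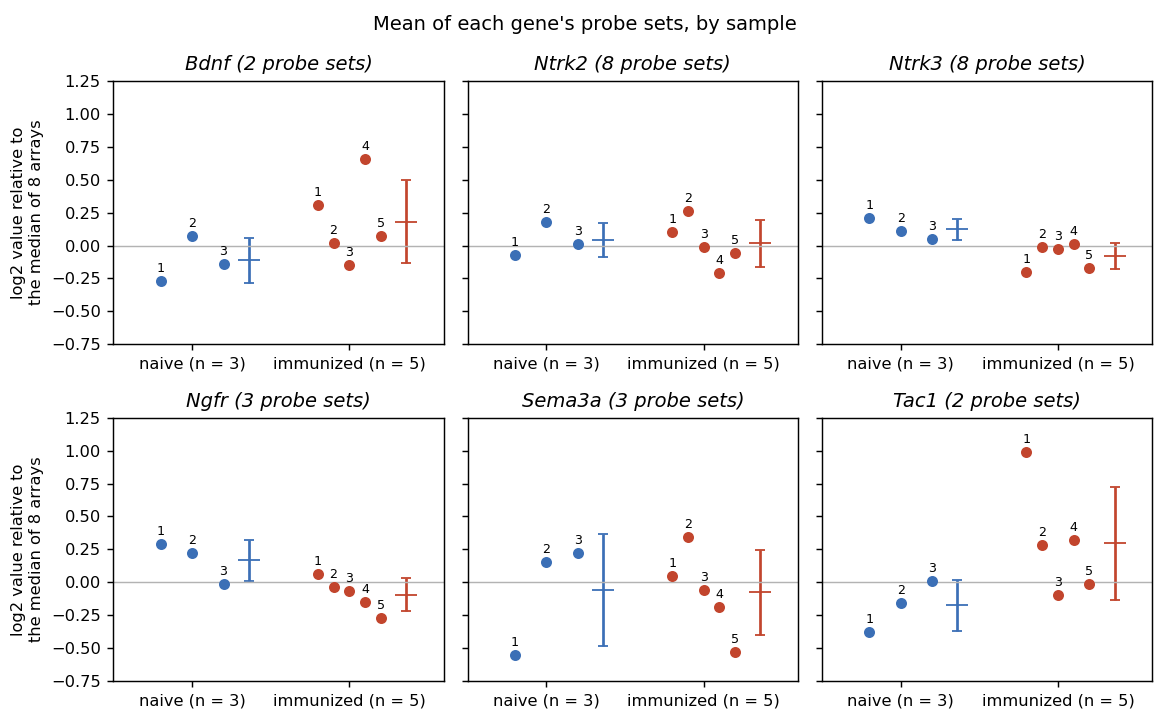
Log2 value of each measured gene (the mean of its probe sets, with the 8-array median at 0) in the 3 naive (blue) and 5 immunized (red) samples. Digits are replicate numbers, and bars are group means with SD. The groups overlap in 5 of the 6 genes, and only in Ntrk3 do all immunized samples (-0.20 to 0.01) lie below all naive samples (0.05 to 0.21).

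Bdnf, the ligand of TrkB, was measured by 2 probe sets. Its values were -0.27, 0.07 and -0.14 in naive replicates 1 to 3 and 0.31, 0.02, -0.15, 0.66 and 0.07 in immunized replicates 1 to 5. Immunized replicates 4 and 1 were highest, and the other 3 immunized samples lay among the naive ones. The difference was 0.29 ± 0.18 (SE, limma; 95% interval -0.10 to 0.69, adjusted p = 0.286), or 1.23-fold. Without immunized replicate 4 it was 0.17 (adjusted p = 0.402). Both probe sets gave a positive difference, 0.22 and 0.37. In the probe set with the larger difference, 4 of 5 immunized samples lay above all naive samples, but it did not pass either (adjusted p = 0.147 over all probe sets).

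Ntrk2 encodes TrkB, the receptor of BDNF, and had 8 probe sets. Their mean was -0.07, 0.18 and 0.01 in naive replicates 1 to 3 and 0.10, 0.26, -0.01, -0.21 and -0.06 in immunized replicates 1 to 5. The immunized samples reached past the naive ones at both ends, and the difference was -0.03 ± 0.11 (95% interval -0.28 to 0.23, adjusted p = 0.898). As a ratio of immunized to naive, the interval of this mean runs from 0.821-fold to 1.18-fold, and it does not bound the single probe sets. The probe sets did not move as one: 4 gave a positive and 4 a negative difference, from -0.27 to 0.29. Only 2 of the 8 lay in the class of 8 or more, and both were widely spread among the immunized samples. These 2 differed by -0.27 ± 0.28 (95% interval -0.91 to 0.38) and -0.23 ± 0.25 (-0.80 to 0.33). One of them, 1420838_at, was -0.03, 0.15 and 0.31 in naive discs and 0.03, 0.71, -0.20, -0.33 and -0.82 in immunized discs. Immunized replicate 2 was its highest sample and immunized replicate 5 its lowest. In that probe set the SD was 0.17 over the naive and 0.56 over the immunized samples. TrkB is made in a form with the kinase and in a truncated form that lacks it, and the annotation does not say which form a probe set reads.

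Ntrk3 encodes TrkC, the receptor of neurotrophin-3, and also had 8 probe sets. Its mean was 0.21, 0.11 and 0.05 in naive replicates 1 to 3 and -0.20, -0.01, -0.03, 0.01 and -0.17 in immunized replicates 1 to 5. Every immunized sample lay below every naive sample, by a small margin. The difference was -0.20 ± 0.08 (95% interval -0.38 to -0.02), or 1.15-fold lower, with an unadjusted p of 0.0351 and an adjusted p of 0.131 in limma. The exact two-sided permutation test gave 0.0357, the smallest p that this test can give for 3 against 5 samples, and any gene whose groups do not overlap reaches it. Of the 8 probe sets 6 gave a lower value in immunized discs, 4 of them at an unadjusted p under 0.05, and 2 a higher one. The single Ntrk3 probe set in the class of 8 or more, 1443970_at, was among the latter (0.06 ± 0.14).

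Ngfr encodes p75, which binds all neurotrophins and is carried by Schwann cells as well as by sensory neurons. Its mean over 3 probe sets was 0.29, 0.22 and -0.01 in naive replicates 1 to 3 and 0.06, -0.04, -0.07, -0.15 and -0.27 in immunized replicates 1 to 5. Of the immunized samples 4 lay below all naive samples, and immunized replicate 1 lay above naive replicate 3. The difference was -0.26 ± 0.10 (95% interval -0.49 to -0.03), or 1.20-fold lower (adjusted p = 0.125 in limma; exact two-sided permutation p = 0.0714). All 3 probe sets gave a negative difference, from -0.45 to -0.11. In 1454903_at the groups did not overlap, with 0.59, 0.23 and 0.02 in naive discs and 0.02, -0.02, -0.15, -0.21 and -0.47 in immunized discs, and the adjusted p was 0.102. Beside Ngfr, 1 of 10 measured Schwann cell markers fell (Ncmap, a protein of myelinating Schwann cells, -1.15 ± 0.27) and 0 rose. The mean of the Schwann cell list ranged from -0.04 to 0.30 in naive and from -0.28 to 0.17 in immunized discs. Sox10, the transcription factor that defines Schwann cells, differed by -0.20 ± 0.08 without passing, and the myelin gene Mbp by -0.18 ± 0.28. Other Schwann cell markers had positive differences: Egr2, a transcription factor of myelination, differed by 0.69 ± 0.26, with all immunized samples above all naive ones, and the cadherin gene Cdh19 by 0.96 ± 0.33. Neither passed (adjusted p = 0.117 and 0.0892). At an unadjusted p under 0.05, 2 of the 10 markers were higher and 4 lower, against 12.9% and 18.2% of all genes. The part of Schwann cell RNA in the Ngfr values was not tested. In bulk RNA, fewer cells of a type and less RNA per cell cannot be told apart.

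Sema3a, the repellent of sensory axons, had 3 probe sets. Their mean was -0.55, 0.15 and 0.22 in naive replicates 1 to 3 and 0.05, 0.34, -0.06, -0.19 and -0.53 in immunized replicates 1 to 5. The lowest naive and the lowest immunized sample lay almost together, and immunized replicate 2 was highest. The difference was -0.02 ± 0.22 (adjusted p = 0.966), and its 95% interval, -0.52 to 0.49, runs from 0.697-fold to 1.40-fold. The probe sets disagreed. In 1420416_at the values were 0.10, 0.35 and 0.40 in naive and -0.10, 0.46, -0.27, -0.18 and -0.71 in immunized discs, a difference of -0.45 ± 0.22. In 1449865_at naive replicate 1 stood at -1.36 and the other naive samples at 0.10 and 0.12, which gave 0.31 ± 0.38 in the other direction. The remaining probe set lay in the class below 4. Leaving out naive replicate 1 moved the difference of the gene to -0.26, which did not pass either (adjusted p = 0.440).

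**Figure D2:**
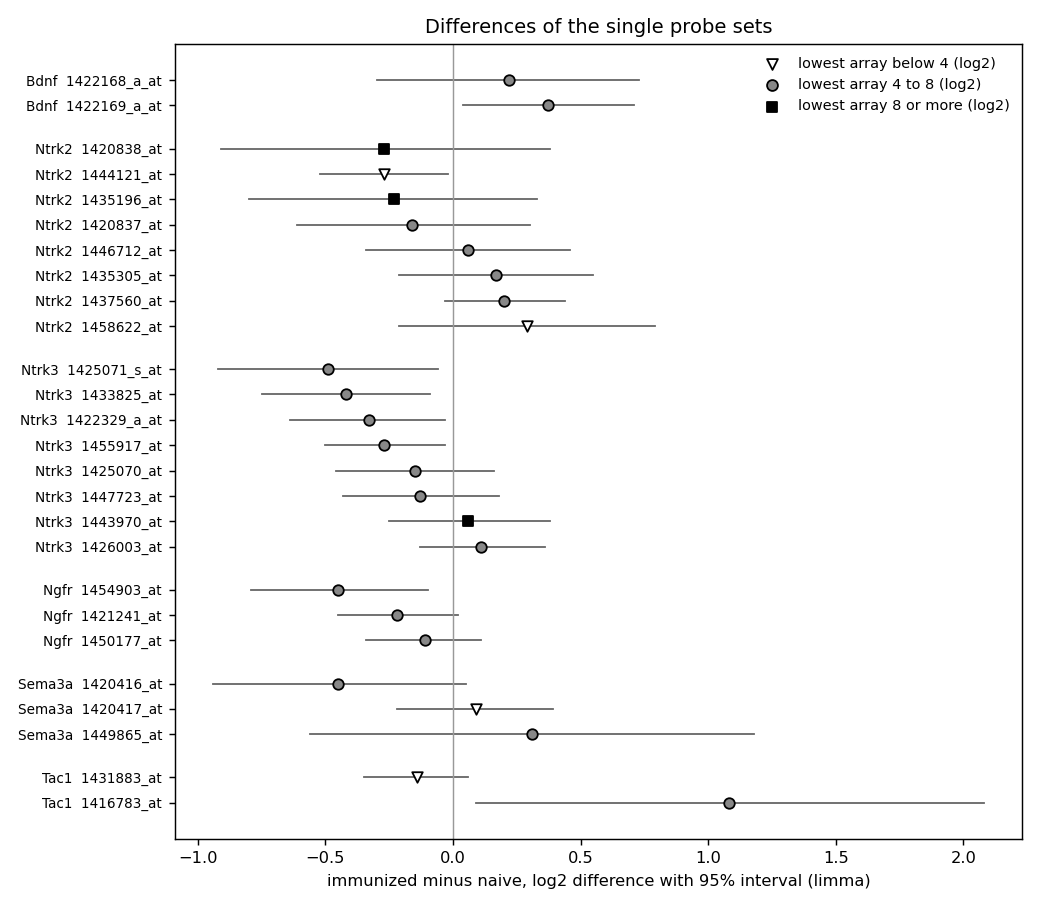
Difference between immunized and naive discs (log2, x axis) for each of the 26 probe sets, with limma's 95% interval. The symbol gives the level class of the lowest array. All 3 Ngfr probe sets lie left of 0 and both Bdnf probe sets right of it, while those of Ntrk2 fall 4 on each side.

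Tac1 encodes the precursor of substance P and neurokinin A, peptides of pain-sensing neurons. It had the largest difference of the 6 genes, 0.47 ± 0.23 (95% interval -0.05 to 0.99), which did not pass (adjusted p = 0.197 in limma; exact two-sided permutation p = 0.107). Of its 2 probe sets, 1431883_at lay in the class below 4 and differed by -0.14. The other, 1416783_at, lay in the class from 4 to 8. Its values were -0.80, -0.31 and -0.16 in naive replicates 1 to 3 and 2.07, 0.53, -0.22, 0.77 and 0.16 in immunized replicates 1 to 5. Of the immunized samples 4 lay above all naive samples, immunized replicate 1 far above the rest, and immunized replicate 3 lay among the naive samples. This probe set alone differed by 1.08 ± 0.44, or 2.12-fold (95% interval 1.06-fold to 4.22-fold), with an unadjusted p of 0.0362 and an adjusted p of 0.152 over all probe sets. With probe sets of the lowest class omitted and immunized replicate 1 left out, the difference was 0.73 (adjusted p = 0.130).

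Markers of sensory neurons were also highest in immunized replicate 1. Of the 16 markers 10 had their highest value there, 2 in immunized replicate 5 and 3 in a naive sample (Scn10a, at 0.89 in naive replicate 1, Gap43, at 0.72 in the same sample, and Pou4f1, at 0.21 in naive replicate 2). Their mean was -0.22, -0.01 and -0.06 in naive discs and 0.95, 0.12, -0.36, -0.12 and 0.47 in immunized replicates 1 to 5. The neurofilament gene Nefl had its highest values, 2.25 and 1.82, in immunized replicates 1 and 5, and its lowest, -1.40, in immunized replicate 3. Prph, the intermediate filament of peripheral neurons, stood at 0.36 in immunized replicate 1 and between -0.09 and 0.12 in all other samples. Calcb, which encodes a second calcitonin gene-related peptide, was 1.72 in immunized replicate 1 and between -0.10 and 0.20 in the other samples, a difference of 0.42 ± 0.37 (adjusted p = 0.469). None of the 16 markers passed in limma, and 1 was higher at an unadjusted p under 0.05 (Stmn2, 1.02 ± 0.36, adjusted p = 0.0966). Markers of central nervous system glia (0 of 8 passed in limma, and 0 at an unadjusted p under 0.05) had means of -0.13 to 0.15 in naive and -0.24 to 0.32 in immunized discs, with immunized replicate 1 at -0.16 and immunized replicate 5 at 0.32. Immunized replicate 5 held the highest value of 4 of the 8 glial markers. It was also the highest sample for Gfap, a glial gene counted here with the Schwann cell markers, at 1.82. Whether the Tac1 values follow the amount of nerve tissue in a sample was not tested.

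**Figure D3:**
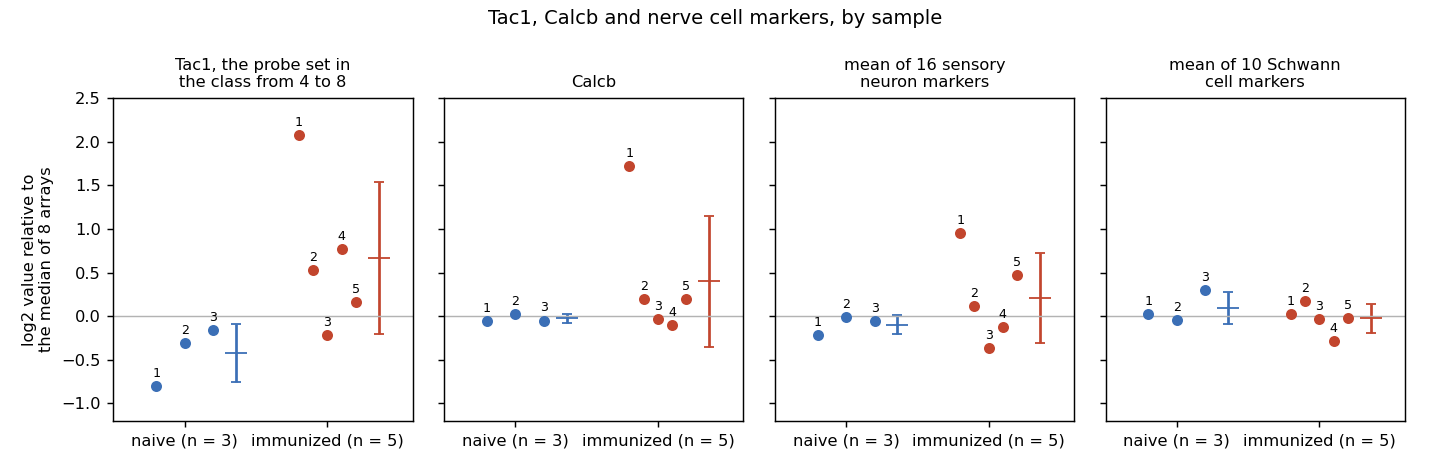
Log2 values by sample (8-array median at 0) of the brighter Tac1 probe set, of Calcb, and of the means of the sensory neuron and Schwann cell lists, with group means and SD. Immunized replicate 1 is the highest sample for Tac1 (2.07), Calcb (1.72) and the neuron markers (0.95), but not for the Schwann cell markers (0.03).

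Promoter windows of the 8 genes were searched for 3 short motifs as a description only, and 1 window each of Tac1 and Bdnf is shown. Whether any motif bears on the values was not tested. The windows searched run from 250 bases before to 50 after a transcript start and are RefSeq sequences of build GRCm38.p6. The 250 bases before the start are printed. The table holds 14 windows for 7 of the 8 genes, Bdnf alone having 7. The full cyclic AMP response element, TGACGTCA, was in 0 of these 14 windows and in 1.79% of all windows of this length. Its core TGACG, searched on both strands and contained in the full element, was in 3 of the 14 windows (21.4%), 1 each of Tac1, Bdnf and Calca, and in 20.8% of all windows, nearly the same share. The E-box CACCTG, on both strands, was in 1 window of Bdnf and in 20.2% of all windows. The Tac1 stretch, chr6:7554811-7555060 on the plus strand, holds the core in 2 places, beginning 197 and 43 bases before the start. The Bdnf stretch, chr2:109692186-109692435 on the plus strand, holds it 35 bases before the start. It comes from the only 1 of the 7 Bdnf windows with the core. Capitals mark the core as read from the other strand, CGTCA. A match is a string of letters and not a site, and the probe sets do not say which Bdnf start was used.
Tac1: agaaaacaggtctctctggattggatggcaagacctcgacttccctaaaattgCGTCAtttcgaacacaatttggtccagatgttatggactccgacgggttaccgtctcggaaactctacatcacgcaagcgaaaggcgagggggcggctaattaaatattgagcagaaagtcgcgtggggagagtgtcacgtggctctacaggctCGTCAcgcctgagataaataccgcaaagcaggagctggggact
Bdnf: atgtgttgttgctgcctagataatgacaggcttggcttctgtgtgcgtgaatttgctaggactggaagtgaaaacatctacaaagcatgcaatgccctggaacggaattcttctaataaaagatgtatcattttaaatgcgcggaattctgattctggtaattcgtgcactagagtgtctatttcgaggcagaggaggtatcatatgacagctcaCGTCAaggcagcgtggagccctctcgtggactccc

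Genes with a pattern close to that of a measured gene were sought for the 2 with an unadjusted p under 0.05. The measure was the mean absolute difference of the log2 values over the 8 samples. Nearest to Ntrk3 were Slc22a13 (0.0231) and Stimate (0.0276), and nearest to Ngfr were Sufu (0.0349) and Ilrun (0.0440). None of these 4 genes passed in limma (adjusted p from 0.0966 to 0.137).

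The wider pathways held genes that passed. Over 6 lists of related genes, 160 different genes were measured, of which 6 rose and 18 fell in immunized discs, 15.0% against 9.14% of all genes. The lists were described by counts and not tested as sets. The median difference of the 160 genes was -0.12, against -0.04 over all genes. In all 24 called genes the groups did not overlap, but they were called from these same samples, so this is no separate support. Groups did not overlap in 7 higher and 34 lower genes of the 160. Of all 18193 genes, they did not overlap in 1708 higher (9.39%) and 2547 lower (14.0%) genes. In 14 of the 18 genes that fell, immunized replicate 2 was the highest immunized sample. In 3 of the 6 that rose it was the lowest. These counts were not taken over all genes, so they are not read as particular to these lists. Many calls were lost when a single sample was left out. Of the 24, 4 remained when naive replicate 1 was dropped, 0 when it was naive replicate 2 and 1 when it was naive replicate 3. Dropping one of immunized replicates 1 to 5 kept 1, 23, 13, 13 and 7. Ptger4 was the 1 that remained without naive replicate 3 or immunized replicate 1. The loss ran through the whole series. Over all genes, 812 higher and 851 lower calls became 254 and 120 without naive replicate 1, and 17 and 4 without naive replicate 2. They became 121 and 55 without naive replicate 3, 101 and 47 without immunized replicate 1, and 1293 and 1710 without immunized replicate 2. Quantile normalization left 14 of the 24.

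Markers of some other cells passed in limma, where 9.14% of all genes did (4.46% higher and 4.68% lower). An unadjusted p under 0.05 was found for 31.1% of all genes. Of 10 macrophage markers 6 rose, the list mean being -0.92 to -0.41 in naive and -0.02 to 0.71 in immunized discs. Of 9 neutrophil markers 3 rose. Of 13 chondrocyte markers 5 fell, with a mean of 0.35 to 0.67 in naive and -0.93 to 0.30 in immunized discs, and immunized replicate 2 again was the highest immunized sample. Of 8 epithelial markers 3 fell. In each of the lists for nucleus pulposus (10 genes), osteoblasts (6) and smooth muscle (8), 1 gene fell. A single call in a list this short is close to the share over all genes. Of 10 endothelial markers 1 rose, and of 8 mast cell markers 1 rose and 2 fell. No marker passed in limma among those of annulus and tendon (9 genes; 1 at an unadjusted p under 0.05), skeletal muscle (10; 0), fibroblasts (8; 1) and erythroid and marrow cells (10; 4). The part of these cells in the differences below was not tested.

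Among 17 measured genes of neurotrophins, their receptors and their processing, 2 fell and 0 rose in limma, 11.8% against 9.14% of all genes. At an unadjusted p under 0.05, 5 were lower and 0 higher, against 18.2% and 12.9% of all genes. Pcsk6, a convertase that cleaves precursor proteins, was 0.71, 0.61 and 0.67 in naive discs and -0.38, 0.38, -0.76, -0.46 and -0.77 in immunized discs. It fell by 1.06 ± 0.24 on the log2 scale (adjusted p = 0.0332) and its highest immunized sample was replicate 2. Bex3, an adaptor that binds p75, fell by 0.35 ± 0.09 (adjusted p = 0.0475). Furin, which trims the precursors of the neurotrophins, had a difference of -0.27 ± 0.10 and did not pass (adjusted p = 0.108), although its groups did not overlap. Both calls were lost after quantile normalization and on dropping any single sample other than immunized replicate 2.

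The list named for the GDNF and ciliary factor families had 14 measured genes and also holds genes outside these families, such as Manf and Ptn. In it Manf rose and Nrtn fell, 14.3% against 9.14% of all genes. An unadjusted p under 0.05 in limma was found for 1 higher and 5 lower genes, against 12.9% and 18.2% of all genes. Manf, a secreted protein induced by stress of the endoplasmic reticulum, was -0.49, -0.49 and -0.30 in naive discs and 0.14, 0.18, 0.32, -0.06 and 0.06 in immunized discs, a rise of 0.56 ± 0.10 (adjusted p = 0.0214). Nrtn, the growth factor neurturin, was 0.88, 0.83 and 0.97 in naive discs and -0.41, 0.41, -1.02, -0.50 and -0.58 in immunized discs, a difference of -1.31 ± 0.26 (adjusted p = 0.0268). All naive samples of Nrtn lay above all immunized ones, and immunized replicate 2 came closest. Ptn, the growth factor pleiotrophin, differed by -1.01 ± 0.31 (adjusted p = 0.0716), Cntfr, the receptor of ciliary neurotrophic factor, by -0.27 ± 0.09, and Gfra3, the receptor of artemin, by -0.29 ± 0.10. These 3 did not pass. Both calls were lost on dropping any naive sample or immunized replicate 1, and that of Nrtn also on dropping immunized replicate 5.

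Among 31 semaphorins, plexins and neuropilins, the family of Sema3a, 6 fell and 1 rose, 22.6% against 9.14% of all genes. An unadjusted p under 0.05 in limma was found for 2 higher and 10 lower genes, against 12.9% and 18.2% of all genes. A negative difference was found in 25 of the 31 and in 10208 of all 18193 genes. Plxna3, a signalling partner of the class 3 semaphorins, was 0.43, 0.58 and 0.58 in naive discs and -0.23, 0.14, -0.17, -0.33 and -0.30 in immunized discs, and fell by 0.71 ± 0.11 (adjusted p = 0.0174). Plxna2, of the same class, fell by 0.52 ± 0.11. Of the ligands, the secreted Sema3b fell by 0.76 ± 0.20, and the membrane-bound Sema4g, Sema6c and Sema5a fell by 0.72 ± 0.13, 0.35 ± 0.09 and 0.36 ± 0.10. The 1 gene that rose was Plxnc1, a plexin carried by leukocytes, at 1.09 ± 0.21 (adjusted p = 0.0254), with -0.55, -0.83 and -0.82 in naive discs and 0.27, -0.14, 0.94, 0.20 and 0.49 in immunized discs. Its 6 probe sets ranged from 0.07 to 1.76. Sema4a (0.97 ± 0.28), Sema3d (-0.71 ± 0.21) and Sema6b (-0.29 ± 0.09) did not pass. Nrp1 and Plxna1, which can together form a receptor of Sema3a, differed by 0.09 ± 0.19 and -0.19 ± 0.12 (adjusted p = 0.784 and 0.311 in limma). Plxna2 and Plxna3, of the same plexin class as Plxna1, fell as given above. Of the 7 calls in this family, Plxna3 alone remained on dropping naive replicate 1 or immunized replicate 5, and 0 on dropping naive replicate 2, naive replicate 3 or immunized replicate 1. On dropping immunized replicate 3 or 4, and after quantile normalization, 4 remained.

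Of 42 netrins, slits, ephrins and their receptors, 4 fell and 0 rose in limma, 9.52% against 9.14% of all genes. At an unadjusted p under 0.05, 19 were lower and 0 higher, against 18.2% and 12.9% of all genes. Slit3, a secreted guidance ligand, was 0.58, 0.55 and 0.62 in naive discs and -0.16, -0.05, -0.47, -0.08 and 0.05 in immunized discs. It fell by 0.73 ± 0.12 (adjusted p = 0.016), and the highest immunized sample, 0.05, lay well below the lowest naive one, 0.55. Ntn1, which encodes netrin-1, fell by 0.65 ± 0.17, its receptor Neo1 by 0.54 ± 0.10 and the ephrin receptor Epha2 by 0.40 ± 0.10. Of the 5 probe sets of Neo1, 1 was higher in immunized discs with an unadjusted p under 0.05, and the differences ranged from -1.10 to 0.49. The ephrin receptors Ephb4 (-0.40 ± 0.12) and Ephb3 (-0.56 ± 0.17) and the netrin Ntn3 (-0.33 ± 0.10) did not pass. Slit3 alone remained on dropping naive replicate 1 or immunized replicate 5, and 0 of the 4 on dropping naive replicate 2, naive replicate 3 or immunized replicate 1. Slit3 and Neo1 remained on dropping immunized replicate 3 or 4, and after quantile normalization.

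**Figure D4:**
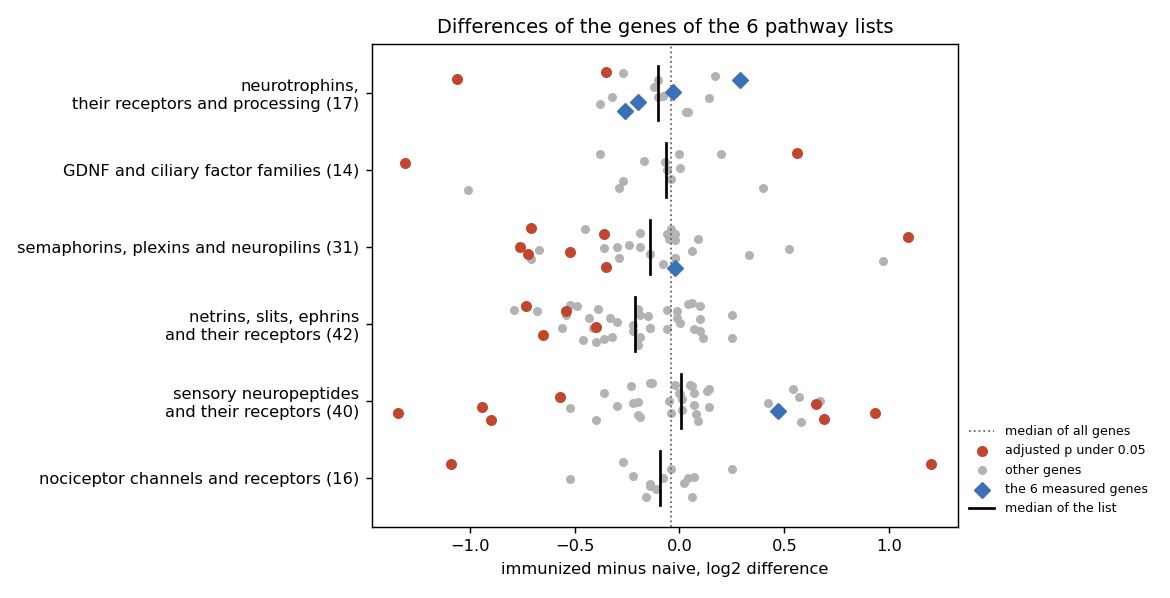
Difference between immunized and naive discs (log2, x axis) of the genes of 6 pathway lists, with the number of genes in brackets. Red points passed at an adjusted p under 0.05 in limma, blue diamonds are the 6 measured genes, short bars are list medians and the dotted line is the median of all genes (-0.04). None of the diamonds passed, and red points lie on the left more often (18) than on the right (6).

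Of 40 sensory neuropeptides and receptors, the group of Tac1, 3 rose and 4 fell, 17.5% against 9.14% of all genes. An unadjusted p under 0.05 in limma was found for 4 higher and 8 lower genes of the 40. Over all genes it was found for 12.9% and 18.2%, or 31.1% together. The list median was 0.0046. Calcrl, the receptor subunit shared by calcitonin gene-related peptide and adrenomedullin, was -0.87, -0.37 and -0.26 in naive discs and 0.36, -0.06, 0.17, 0.38 and 0.12 in immunized discs. All immunized samples lay above all naive ones, and it rose by 0.69 ± 0.16 (adjusted p = 0.0336). Calcrl is abundant in endothelial cells. Of its partners, Ramp2, which turns it into an adrenomedullin receptor, fell by 0.94 ± 0.19 (adjusted p = 0.0288), and Ramp1, which turns it into the receptor of calcitonin gene-related peptide, differed by 0.08 ± 0.10 (adjusted p = 0.602). Tacr1, the receptor of substance P, differed by -0.19 ± 0.09 (adjusted p = 0.182). Its values were 0.01, 0.15 and 0.11 in naive and -0.23, -0.03, 0.02, -0.25 and -0.01 in immunized discs. Mme, the peptidase neprilysin that breaks down substance P, rose by 0.65 ± 0.17 (adjusted p = 0.0492), and Nts, the peptide neurotensin, rose by 0.93 ± 0.19 (adjusted p = 0.0267).

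The 3 other genes of that list that fell were Cck, the peptide cholecystokinin, Galr2, a galanin receptor, and Pomc, the precursor of the endorphins. Cck was 1.62, 0.83 and 0.85 in naive discs and -0.19, 0.19, -0.19, -0.68 and -0.31 in immunized discs, a fall of 1.34 ± 0.22 on the log2 scale (adjusted p = 0.0191). Galr2 fell by 0.90 ± 0.17 and Pomc by 0.57 ± 0.13. Gal (-0.36 ± 0.14), Vipr1, a receptor of vasoactive intestinal peptide (-0.23 ± 0.09), and Crcp, a component of calcitonin gene-related peptide receptors (-0.22 ± 0.07), did not pass. Of the 7 calls in the list, Cck alone remained on dropping naive replicate 1, and 0 on dropping naive replicate 2, naive replicate 3 or immunized replicate 1. On dropping immunized replicate 3 or 4 there were 4, on dropping immunized replicate 5 there were 3, and 5 remained after quantile normalization.

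Of 16 nociceptor channels and receptors, Ptger4 rose and Trpv4 fell, 12.5% against 9.14% of all genes. An unadjusted p under 0.05 in limma was found for 1 higher and 3 lower genes of the 16, against 12.9% and 18.2% of all genes. Ptger4, a prostaglandin E2 receptor of sensory neurons and leukocytes, was -0.93, -0.90 and -1.10 in naive discs and 0.40, -0.24, 0.43, 0.25 and 0.29 in immunized discs. It rose by 1.20 ± 0.15 (adjusted p = 0.00903), and immunized replicate 2 was the lowest immunized sample. Trpv4, a channel that responds to osmotic and mechanical load and is also found in chondrocytes, was 0.63, 0.62 and 0.73 in naive discs and -0.44, 0.44, -0.91, -0.52 and -0.73 in immunized discs. It fell by 1.09 ± 0.26 (adjusted p = 0.0395), and immunized replicate 2 was the highest immunized sample. The mechanosensitive channel Piezo2 (-0.52 ± 0.17), the ATP-gated channel P2rx2 (-0.22 ± 0.07) and the irritant receptor Trpa1 (0.25 ± 0.15) did not pass. The sodium channel Scn10a and the capsaicin receptor Trpv1, both markers of pain-sensing neurons, differed by -0.27 ± 0.21 and 0.02 ± 0.07. Ptger4 remained a call without any single sample except naive replicate 2, and Trpv4 remained only without immunized replicate 2. Of the 2 Ptger4 probe sets, which differed by 1.17 and 1.24, 1 lay in the class below 4. With probe sets of that class omitted Ptger4 remained a call, but not when immunized replicate 1 was also left out.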

How the data were processed

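The authors deposited log2 values for the probe sets of each array, computed with RMA (version not stated) per the submitters' processing notes. Biotinylated cRNA was made from 2 to 5 µg of RNA, per the labels. The log base is that of RMA. Every probe set has a median of 0 over the 8 arrays, to within 5.0e-07. Of 45101 probe sets, 64 controls were left out, 34945 name 1 gene, 932 several and 9160 none. A gene is the mean of the probe sets naming it alone, with symbols checked against a RefSeq table of GRCm38.p6. Level classes were read from the spacing of values of 0.001 or more. Immunized and naive samples were compared in limma 3.58.1 (R 4.3.3; two-sided, no covariate, Benjamini-Hochberg over 18193 genes, threshold 0.05), tested on simulated data, and with exact permutation tests (scipy 1.17.1).

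The genes, lists and tests were chosen with earlier results of these data known. Named are the 8 genes, every called gene of the 6 lists, up to 3 more of each by moderated t, receptor and ligand partners, and the 2 nearest patterns of each gene with an unadjusted p under 0.05. The cell type markers named were picked after their values were seen. No batch is recorded. Precision is limited by there being 8 arrays.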

Additional observations from a re-analysis of the deposited data

Results flagged for a closer look

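In 5 of 127 sets of immunized values examined, 1 sample lay far from the other 4; chance alone flags about 1 in 20 such sets. Immunized replicate 1 stood apart in Calcb (1.72), in the neuronal transcription factor Isl1 (0.68) and in Avil, an actin-binding protein of sensory neurons (0.91). Immunized replicate 2 was the low sample of Ptger4 (-0.24), and immunized replicate 4 the high sample of Plxna1 (0.29).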

How the results depend on the processing

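None of the 6 genes passed under any setting but array weights, where 2 did in limma, Tac1 (0.75, adjusted p = 0.0446) and Ntrk3 (-0.23, adjusted p = 0.0313). In that setting 2495 of all 18193 genes were called higher and 3405 lower, against 812 and 851 in the main fit. The 2 calls therefore single out nothing about these genes. The differences of Bdnf, Ngfr and Tac1 kept their sign in every setting. Those of Ntrk2 and Sema3a turned positive with the replicate number as a block (0.07 and 0.17), that of Sema3a without both samples with joined numbers (0.09), and that of Ntrk3 with the probe sets of the highest level class alone (0.06); the cause was not tested. With single samples left out, Ntrk2 ranged from -0.09 to 0.05, Sema3a from -0.26 to 0.12, Bdnf from 0.17 to 0.39 and Tac1 from 0.29 to 0.57.

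The count of 24 called pathway genes became 14 after quantile normalization, 10 with arrays scaled to equal spread, 67 with array weights, 0 with the replicate block, 0 without both joined samples, 0 to 39 without single samples, and 44 and 1 at thresholds of 0.1 and 0.01. With the lowest signal class omitted, it was 0 without immunized replicate 1 and 4 without naive replicate 1, settings that, like the highest level class, were chosen after seeing the data. Over all genes, 812 higher and 851 lower calls became 541 and 369 after quantile normalization, and 403 and 239 with arrays scaled. They became 6 and 1 with the block, and 0 and 0 without both joined samples. At an unadjusted p under 0.05, 43 pathway genes remained in limma with the block and 34 without both joined samples, against 58. The labels state no pairing of same-numbered samples. Their deviations from the group means correlated at -0.05, 0.24 and -0.10, within the range of the other pairs (-0.38 to 0.33). So few values cannot show or exclude that same-numbered samples were handled together. Over all genes 59.5% of calls were higher after quantile normalization and 62.8% after scaling, against 48.8%.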
